A study of Mus musculus with 11 samples.

Results

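The chitinase-like and resistin-like (RELM) genes of the mouse airway were followed across 11 RNA-seq libraries. The family was taken as the 7 genes Chil1, Chil3, Chil4, Chia1, Retnla, Retnlb and Retnlg, found by matching the mouse Ensembl identifiers of the expression table to their symbols. All 7 had a row among the 21899 genes listed, and all 7 were among the 14004 genes that passed a filter of a mean of at least 0.5 FPKM over the libraries. Levels are given in FPKM, in which the fragments of a gene are divided by its exon length and by the total of its library. Retnlb passed this filter only through its level in the OVA/LPS groups, since it was at 0 in every PBS library, and Chil4 did so in the same way, since its PBS mean was 0.0381 FPKM.

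The study gave ovalbumin (OVA) with alum, OVA by the nose and then lipopolysaccharide (LPS) to wild-type (labelled WT) male BALB/c mice to model a steroid resistant asthma exacerbation. The OVA/LPS/Vehicle group (4 libraries, labelled OL) also received vehicle into the trachea, and the OVA/LPS/GGsTop group (4 libraries, labelled OLG) received GGsTop, an inhibitor of γ-glutamyl transferase, in its place. The PBS group (3 libraries) was neither sensitised nor challenged with OVA and received PBS alone, so OVA, alum, LPS and the vehicle all separate it from the other groups. RNA came from bluntly dissected larger airways, which the labels call trachea while the methods describe airway without the trachea, and club cell and alveolar transcripts were abundant in every library (Scgb1a1 26145 to 47905 FPKM, Sftpc 3541 to 12502 FPKM). The OVA/LPS/Vehicle libraries are numbered 12, 34, 56 and 78, and the sources do not say if such a number means a pool of animals. Nothing in the labels ties a library to 1 animal, so the p-values measure the spread between libraries only.

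Chitinase-like proteins belong to the family 18 glycosyl hydrolases. Acidic mammalian chitinase, encoded by Chia1, cleaves chitin, whereas the proteins of Chil1, Chil3 (Ym1) and Chil4 (Ym2) keep the fold of the enzyme without the catalytic glutamate. RELM proteins are small cysteine-rich secreted proteins related to resistin. In mouse lung, Chil3, Chil4, Chia1 and Retnla (RELMα, also called FIZZ1) are known as products of macrophages and airway epithelium that follow IL-4 and IL-13 through STAT6, Retnlb (RELMβ) is best known from goblet cells, and Retnlg (RELMγ) from myeloid cells.

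The stretch that holds the active site shows which members carry the enzyme's glutamate codon. The 24 coding bases below end with the codon that aligns to the last glutamate of the chitinase motif of Chia1, read from the longest coding sequence of each gene in GENCODE M21 on GRCm38, and that codon is in capitals.
Chia1: gatggactggacctggactggGAA
Chil3: gatggcctcaacctggactggCAG
Chil4: gatggcctcaacctggactggCAG
Chil1: gatgggctggatctcgcctggCTC
The capitals spell a glutamate codon in Chia1 and no glutamate codon in Chil3, Chil4 or Chil1. The windows of Chil3 and Chil4 were the same. Over their whole coding sequences these 2 genes were 95.3% identical, and 3.75% of the stretches of 100 bases in either one also stood in the other, and fragments that lie within such stretches cannot be assigned to either gene. Chia1 was 76.0% identical to Chil3 and 75.5% to Chil4, and Chil1 was 60.0 to 63.8% identical to the other 3. Retnla and Retnlg shared 84.2% of aligned coding bases, Retnlb and Retnlg 81.4%, and Retnla and Retnlb 74.8%, with no shared stretch of 100 bases. Chil3, Chil4 and Chia1 lie together on chromosome 3 (chr3:106147554-106167564, chr3:106201490-106219507 and chr3:106113229-106132120), and the 3 RELM genes lie together on chromosome 16 (Retnla at chr16:48842551-48844461, Retnlb at chr16:48816856-48818892, Retnlg at chr16:48872621-48874496). Chil1 lies apart at chr1:134182176-134190181. These coordinates are of GRCm38, while the submitters' processing notes name mm39.

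The sequence just upstream is shown for 2 pairs of related genes that lie in the same cluster, Retnla with Retnlg and Chil3 with Chil4. The windows are from RefSeq on GRCm38.p6, kept to the bases outside each gene as GENCODE has it, and written 5′ to 3′ on the gene's strand. RefSeq promoter windows were at hand for 6 of the 7 genes, without Retnlb. Capitals mark matches to TTCNNNNGAA, the letters of a STAT6 site, or to TTCNNNGAA, those of other STAT sites. Both read the same on either strand.
Retnla, chr16:48842359-48842550, plus strand: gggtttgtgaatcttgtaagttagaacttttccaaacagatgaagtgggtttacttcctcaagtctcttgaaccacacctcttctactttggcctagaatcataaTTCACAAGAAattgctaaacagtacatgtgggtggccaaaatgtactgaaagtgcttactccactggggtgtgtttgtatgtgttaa
Retnlg, chr16:48872358-48872607, plus strand: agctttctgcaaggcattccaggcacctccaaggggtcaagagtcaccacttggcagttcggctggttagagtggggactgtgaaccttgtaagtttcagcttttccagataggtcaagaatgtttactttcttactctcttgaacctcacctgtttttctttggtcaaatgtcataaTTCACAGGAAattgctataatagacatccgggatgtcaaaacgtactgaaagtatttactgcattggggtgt
Chil3, chr3:106167565-106167814, minus strand: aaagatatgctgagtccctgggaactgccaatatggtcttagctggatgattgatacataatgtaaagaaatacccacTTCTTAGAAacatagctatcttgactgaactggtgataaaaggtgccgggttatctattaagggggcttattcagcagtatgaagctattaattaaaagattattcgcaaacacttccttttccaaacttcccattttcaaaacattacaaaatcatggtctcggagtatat
Chil4, chr3:106219508-106219729, minus strand: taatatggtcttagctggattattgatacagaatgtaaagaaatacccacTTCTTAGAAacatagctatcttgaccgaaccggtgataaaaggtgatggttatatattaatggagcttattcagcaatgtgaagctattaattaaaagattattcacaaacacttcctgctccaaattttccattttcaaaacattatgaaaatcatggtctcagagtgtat
A match to the STAT6 letters stood upstream of Retnla and Retnlg, and the shorter STAT letters stood upstream of Chil3 and Chil4. Neither was in the windows of Chil1 (250 bases) or Chia1 (97 bases). Of 32851 mouse promoter windows, 5.85% held the STAT6 letters within 250 bases and 4.58% within 192 bases, the length shown for Retnla, and 7.02% held the shorter letters within 250 bases. The windows of Chil3 and Chil4 agreed at 91.0% of aligned bases and those of Retnla and Retnlg at 76.7%. A match describes letters in these windows and says nothing of binding in these airways.

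Libraries held 14513136 to 18632382 fragments, as recovered from the FPKM. GC-rich transcripts were relatively high in the library PBS 3 (a slope of 0.53 log2 units per 10 points of GC content, against 0.048 and 0.061 in the other PBS libraries) and low in all 4 OVA/LPS/Vehicle libraries (−0.26 to −0.19). The libraries OL 56 and OLG 3 stood apart for the family itself. All 7 members had the lowest value of their group in OL 56, and 5 of 7 (Chil3, Chil4, Retnla, Retnlb and Retnlg) had it in OLG 3. OL 56 also had the lowest values of its group for the macrophage genes Cd68 (12.1 FPKM against 26.2 to 45.8 in the other 3) and Adgre1 (4.22 against 8.34 to 12.5), and the highest for the gland genes Lipf (590 FPKM) and Dcpp2 (304 FPKM). OLG 3 had the lowest values of its group for the airway epithelial genes Bpifa1 (29.1 FPKM against 455 to 4708) and Krt5 (0.0288 against 2.30 to 33.1), while its Scgb1a1 was the highest of the group (47126 FPKM). Their part in the results was not tested. For the 7 members, results are given with and without these libraries where the call changes, while most other genes were not recomputed without them.

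In PBS airways the family was dominated by Chil1. Chil1 had a mean of 170 ± 38.1 FPKM (SD, n = 3), followed by Chil3 at 60.3 ± 14.3, Retnla at 54.2 ± 19.3, Chia1 at 34.4 ± 6.48 and Retnlg at 23.7 ± 7.89. The ranges of Chil3 and Retnla overlapped, as did those of Retnla and Chia1 and those of Chia1 and Retnlg, so this order holds between neighbours only for Chil1 above Chil3 and for Retnlg above the last 2. Chil4 followed with 0.114 FPKM in PBS 3 and 0 in PBS 1 and PBS 2, and no fragment of Retnlb was counted. In OVA/LPS/Vehicle airways the order of the means was Retnla (3489 ± 1096 FPKM, n = 4), Chil3 (462 ± 292), Chil1 (213 ± 69.6), Chil4 (181 ± 97.8), Chia1 (84.5 ± 23.2), Retnlg (46.2 ± 25.9) and Retnlb (0.799 ± 0.659). The order was the same in OVA/LPS/GGsTop airways, with Retnla at 2883 ± 1277 FPKM (n = 4), Chil3 at 458 ± 175, Chil1 at 210 ± 62.5, Chil4 at 140 ± 97.7, Chia1 at 66.6 ± 16.4, Retnlg at 58.3 ± 25.3 and Retnlb at 0.818 ± 0.435. In both groups Retnla lay above the range of every other member and Retnlb below it, and all neighbours between them overlapped. Retnla made up 12.4 to 17.2% of the summed FPKM of the 7 genes in PBS libraries, 75.6 to 83.0% in OVA/LPS/Vehicle libraries and 68.3 to 80.3% in OVA/LPS/GGsTop libraries. No library of either OVA/LPS group came near the PBS range.

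**Figure D1:**
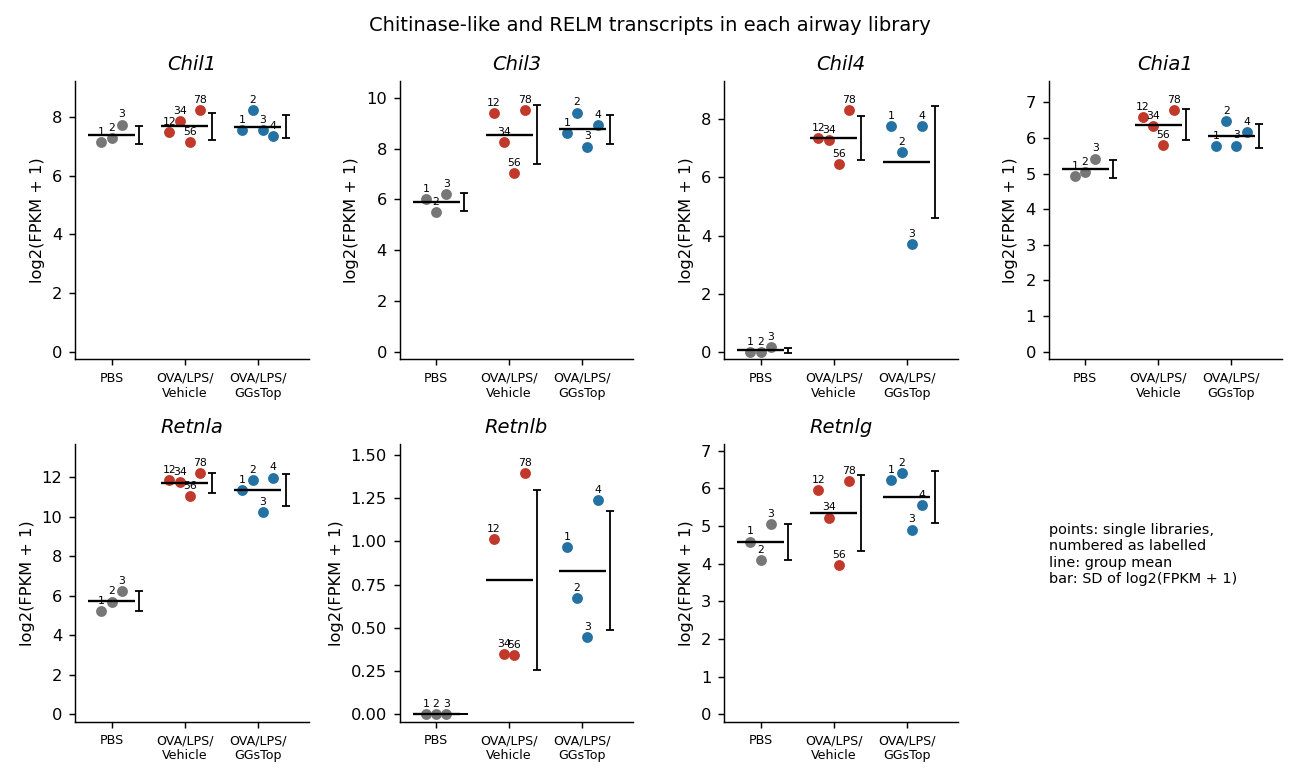
Level of each of the 7 genes in each library, as log2(FPKM + 1), with the group mean (line) and SD (bar). Chil3, Chil4, Chia1, Retnla and Retnlb were higher in every OVA/LPS library than in every PBS library, while the Chil1 and Retnlg groups overlap, and OL 56 and OLG 3 hold many of the lowest points of their groups.

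The comparison of OVA/LPS/Vehicle with PBS asks what the exacerbation model does to these transcripts. Retnla, Chil4, Chil3, Chia1 and Retnlb were called higher, 5 of the 7 genes, and Chil1 and Retnlg did not pass the test (limma on log2(FPKM + 1), adjusted p under 0.05 over all genes tested). Chil4 and Retnlb passed the filter only through the OVA/LPS groups, so they could only come out higher and are no support in this count. The call of Retnlb also changed with the settings, as given below. Of all genes tested, 38% passed in this comparison, with 15.9% higher and 22.1% lower (2231 and 3096 genes, or 1232 and 4570 after scaling to the same FPKM total). The median log2 fold change of the 7 genes was 1.25, beside −0.015 over all genes. Values of 5 of the 7 genes, Chil4 and Retnlb among them, did not overlap between the groups with OVA/LPS/Vehicle higher, as for 18.7% of all genes. In such bulk tissue more RNA per cell and more cells of a type cannot be told apart.

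Retnla, the RELMα gene, was the most abundant member. It was at 36.7, 51.0 and 74.8 FPKM in the PBS libraries. In OVA/LPS/Vehicle libraries 12, 34, 56 and 78 it was at 3651, 3450, 2093 and 4764 FPKM. In OVA/LPS/GGsTop libraries 1 to 4 it was at 2627, 3690, 1188 and 4025 FPKM. Even the lowest OVA/LPS value, of OLG 3, was far above the highest PBS value. By FPKM, Retnla was between the 6th and the 16th most abundant gene in the OVA/LPS libraries and between the 525th and the 1237th in the PBS libraries. The group means of OVA/LPS/Vehicle and PBS differed 64.4-fold, on the log2 scale of limma by 5.98 ± 0.42 (SE), with an adjusted p of 0.000192. It stayed between 5.74 and 6.51 under all 19 alternative settings, with adjusted p of at most 0.00272.

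Chil4, the Ym2 gene, went from near absence to the level of Chil1. Counts were 0, 0 and 6 fragments in the PBS libraries, and the pooled PBS level of 0.0433 FPKM has an exact Poisson interval (95%, counting error only) of 0.0159 to 0.0942 FPKM. In the OVA/LPS/Vehicle libraries it was at 164, 156, 86.2 and 318 FPKM, and in the OVA/LPS/GGsTop libraries at 217, 115, 12.1 and 216 FPKM. The log2 fold change of OVA/LPS/Vehicle against PBS was 7.30 ± 0.82 (adjusted p = 0.00242), which depends on the added 1 because the PBS level is so low, and it was 12.56 with voom on the recovered reads. The PBS reads of Chil4 cannot be told from misassigned reads of its close copy, since the same PBS libraries held 4903 fragments of Chil3. In OVA/LPS/Vehicle libraries Chil4 held 41.6 to 114 fragments per 100 fragments of Chil3.

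Chil3, the Ym1 gene, was already present in PBS airways at 63.6, 44.7 and 72.7 FPKM. It was at 679, 305, 131 and 735 FPKM in the OVA/LPS/Vehicle libraries and at 390, 683, 270 and 490 FPKM in the OVA/LPS/GGsTop libraries. The lowest OVA/LPS value was that of OL 56, at 131 FPKM, still above every PBS library. The means of OVA/LPS/Vehicle and PBS differed 7.67-fold, with a log2 fold change of 2.65 ± 0.53 (adjusted p = 0.00569), and the call held under all 19 alternatives (2.33 to 3.15).

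Chia1, the gene of the active chitinase, was at 29.6, 31.7 and 41.7 FPKM in PBS libraries and at 95.4, 79.0, 54.9 and 109 FPKM in OVA/LPS/Vehicle libraries. OVA/LPS/GGsTop libraries had 53.7, 88.2, 54.2 and 70.4 FPKM. The OVA/LPS/Vehicle mean was 2.46-fold that of PBS, with a log2 fold change of 1.25 ± 0.24 (adjusted p = 0.00511), and the call held under all 19 alternatives (1.07 to 1.49).

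Retnlb, the RELMβ gene, was the scarcest member. No fragment was counted in the PBS libraries, which allows a level of up to 0.0876 FPKM over the group (3 fragments, counting error only). The OVA/LPS/Vehicle libraries held 11, 3, 3 and 19 fragments, or 1.02, 0.270, 0.270 and 1.63 FPKM, and the OVA/LPS/GGsTop libraries 10, 6, 4 and 14 fragments. The OVA/LPS/Vehicle mean was thus at least 9.12-fold higher and that of OVA/LPS/GGsTop at least 9.34-fold higher than this limit. The limma call of OVA/LPS/Vehicle against PBS (0.78 ± 0.26, adjusted p = 0.0374) was lost with GC correction (0.61, adjusted p = 0.123) and on leaving out PBS 1 (adjusted p = 0.0785), PBS 2 (0.0587), PBS 3 (0.102), OL 12 (0.0811) or OL 78 (0.0864).

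Retnlg, the RELMγ gene, ran over a wide range within each OVA/LPS group. PBS libraries had 23.1, 16.2 and 31.9 FPKM, OVA/LPS/Vehicle libraries 61.4, 36.4, 14.6 and 72.5 FPKM, and OVA/LPS/GGsTop libraries 73.8, 84.4, 29.0 and 46.3 FPKM. The value of OL 56 was below all 3 PBS values, whereas the other 3 libraries of its group were above them. The log2 fold change of OVA/LPS/Vehicle against PBS was 0.76 with a 95% confidence interval of −0.35 to 1.87 (adjusted p = 0.248), and without OL 56 it was 1.22 (adjusted p = 0.0474).

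Chil1, the most abundant member at baseline, showed no call. It was at 142, 154 and 213 FPKM in PBS libraries, at 177, 234, 141 and 300 FPKM in OVA/LPS/Vehicle libraries and at 189, 302, 187 and 162 FPKM in OVA/LPS/GGsTop libraries. The 3 groups overlapped throughout. The log2 fold change of OVA/LPS/Vehicle against PBS was 0.29, with an interval of −0.31 to 0.89 (adjusted p = 0.411), which leaves room for a level from 0.806-fold to 1.86-fold of PBS on the scale of FPKM + 1. With array weights, which count libraries by their estimated quality, it was 0.67 (adjusted p = 0.0295).

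**Figure D2:**
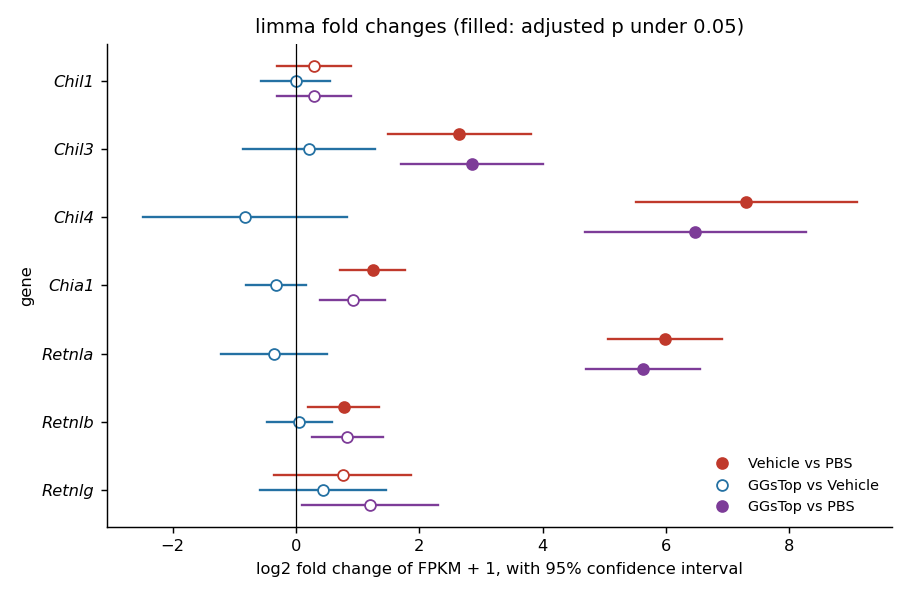
limma log2 fold changes of FPKM + 1 with 95% confidence intervals for the 7 genes in the 3 comparisons, with filled points where the adjusted p was under 0.05. Chil4 and Retnla lie farthest from 0 against PBS (7.30 and 5.98 in OVA/LPS/Vehicle), and every interval of GGsTop against vehicle spans 0.

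The comparison of OVA/LPS/GGsTop with OVA/LPS/Vehicle asks what GGsTop does to these transcripts in treated airways. By limma, 0 of the 7 genes passed the test, 0 had an unadjusted p under 0.05 (the smallest was 0.171, for Chia1) and 0 passed with voom on the recovered reads, while 8.71% of all genes tested passed (966 higher and 254 lower, 344 and 354 after scaling to the same median, and 2026 and 155 after scaling to the same FPKM total). The groups overlapped for each gene. The log2 fold changes were −0.83 for Chil4, −0.36 for Retnla, −0.33 for Chia1, −0.0037 for Chil1, 0.055 for Retnlb, 0.20 for Chil3 and 0.44 for Retnlg. Their median was −0.0037, beside 0.031 over all genes.

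The intervals show how much these libraries could resolve. For Chia1 the 95% interval ran from −0.81 to 0.16, for Retnla from −1.22 to 0.50, for Chil1 from −0.56 to 0.55 and for Retnlb from −0.48 to 0.59. For Chil3 it ran from −0.86 to 1.27 and for Retnlg from −0.59 to 1.47. The widest was that of Chil4, from −2.49 to 0.83, with OLG 3 at 12.1 FPKM beside 115 to 217 FPKM in the other GGsTop libraries. Without OLG 3 the differences of Retnla and Chil4 were 0.019 and 0.11, while that of Chil3 was −0.30 without OL 56 and −0.014 without OLG 2, and without OL 56 that of Retnlg was −0.018. The signs of these 4 differences therefore rested on single libraries.

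Against PBS, the OVA/LPS/GGsTop airways had higher Retnla, Chil4 and Chil3, 3 of the 7 genes, beside 2.88% of all genes tested (2.06% higher). Chil4 passed the filter only through the OVA/LPS groups, so here too it could only come out higher. The 2.88% were 403 genes (288 higher and 115 lower, or 250 and 243 after scaling to the same FPKM total), and 62 with the replicate block, which left the same 3 members called. This comparison shares its PBS libraries with the one above. Retnla was 53.2-fold higher by group means (log2 fold change 5.62 ± 0.42, adjusted p = 0.000266) and held under all 21 alternatives. Chil4 had a log2 fold change of 6.47 ± 0.82 (adjusted p = 0.00472), and the call was lost with voom on the recovered reads (11.7, adjusted p = 0.157). Chil3 was 7.60-fold higher by means (2.85 ± 0.53, adjusted p = 0.0215), and the call was lost without PBS 1 (adjusted p = 0.0912), PBS 3 (0.0786), OLG 1 (0.0654) or OLG 2 (0.0590).

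The other 4 genes did not pass against PBS in the GGsTop group. The log2 fold change of Chia1 was 0.92 (interval 0.39 to 1.45, adjusted p = 0.0624), and it passed without OLG 3 (1.01, adjusted p = 0.0473) and with array weights (1.03, adjusted p = 0.0106). Retnlb had 0.83 (0.26 to 1.41, adjusted p = 0.109) and passed with a pseudocount of 0.1 (3.07, adjusted p = 0.0251). Retnlg had 1.20 (0.089 to 2.31, adjusted p = 0.212) and Chil1 0.29 (−0.32 to 0.89, adjusted p = 0.572). With OL 56 and OLG 3 both left out, Chia1 (1.01, adjusted p = 0.0331) and Retnlg (1.49, adjusted p = 0.0371) passed as well, which made 5 of 7. Values of 5 of the 7 genes, Chil4 and Retnlb among them, did not overlap between these groups with OVA/LPS/GGsTop higher, as for 7.22% of all genes.

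The 7 genes are set beside the rest of their families. Of 7 further family 18 hydrolase and resistin genes listed in the table, Chid1, Ctbs, Ovgp1 and Retn were tested and none passed in any of the 3 comparisons by limma (at an unadjusted p under 0.05, Chid1 in OVA/LPS/Vehicle against PBS and Ovgp1 in GGsTop against vehicle). Chit1, the chitotriosidase gene, had group means of 0.0374 to 0.0613 FPKM, and Chil5 and Chil6 were also below the filter. Retn, resistin itself and an adipocyte product in mice, was at 1.35 to 11.2 FPKM in PBS, 6.71 to 10.8 FPKM in OVA/LPS/Vehicle and 0.602 to 16.0 FPKM in OVA/LPS/GGsTop libraries, with log2 fold changes of 1.12 (adjusted p = 0.253) and −0.94 (adjusted p = 0.380) for OVA/LPS/Vehicle against PBS and GGsTop against vehicle. The 10 adipocyte markers, Retn among them, had summed levels of 64.5 to 468 FPKM in PBS, 362 to 1083 FPKM in OVA/LPS/Vehicle and 40.7 to 512 FPKM in OVA/LPS/GGsTop libraries, and their part in the level of Retn was not tested.

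Receptors and partners proposed for these proteins were tested next. Of 6 genes, only Tlr4 passed in OVA/LPS/Vehicle against PBS, from 4.13 ± 1.28 to 6.99 ± 1.18 FPKM (log2 fold change 0.66, adjusted p = 0.0194), and its call was lost with GC correction (0.14, adjusted p = 0.538), without PBS 3 (0.47, adjusted p = 0.0846) and without OL 78 (0.58, adjusted p = 0.0528). Lgals3, Cd44, Cap1, Btk and Tmem219 had log2 fold changes of 0.27, 0.38, −0.25, 0.16 and −0.19 with adjusted p from 0.0620 to 0.483. Il13ra2, a decoy receptor for IL-13 that also binds Chil1 protein, was at 0 in all PBS libraries, at 0.0825 to 0.682 FPKM in OVA/LPS/Vehicle and at 0.0556 to 0.148 FPKM in OVA/LPS/GGsTop libraries, below the filter. Ptgdr2, also below the filter and so not tested by limma, had means of 0.690 FPKM in PBS, 0.193 in OVA/LPS/Vehicle and 0.356 in OVA/LPS/GGsTop libraries. Every OVA/LPS/Vehicle value of Ptgdr2 was below every PBS value, while the OVA/LPS/GGsTop values overlapped both groups. No tested gene of this list passed between GGsTop and vehicle by limma (Tlr4 at an unadjusted p of 0.0490). None passed between GGsTop and PBS either (0 at an unadjusted p under 0.05).

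IL-4 and IL-13 are the cytokines known to turn on Retnla, Chil3 and Chil4, so the signalling genes and other targets were read beside them. Il4 was at 2.18 ± 1.17 FPKM in PBS and 4.12 ± 0.493 FPKM in OVA/LPS/Vehicle libraries (log2 fold change 0.76, adjusted p = 0.0321), and 8 of 19 alternatives lost this call, among them GC correction (0.38, adjusted p = 0.179) and leaving out PBS 3 (0.41, adjusted p = 0.110), OL 12 (0.73, adjusted p = 0.0641), OL 34 (0.78, adjusted p = 0.0580) or OL 78 (0.72, adjusted p = 0.0724). Il13 ranged from 0 to 0.178 FPKM in PBS, 0 to 0.107 FPKM in OVA/LPS/Vehicle and 0 to 0.316 FPKM in OVA/LPS/GGsTop libraries, and Il5 from 0 to 0.117 FPKM over all libraries, too low to be compared. Of the 16 signalling genes tested, 3 were higher in OVA/LPS/Vehicle than in PBS (Il4, Il13ra1 and Il1rl1) and 5 lower (Il4ra, Jak3, Tyk2, Stat6 and Crlf2). Of all genes, 15.9% were higher and 22.1% lower.

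Il13ra1 and Stat6 moved in opposite directions, while Il4ra fell as Stat6 did. Il13ra1, a chain of the IL-13 receptor, rose from 13.1 ± 6.20 to 30.7 ± 4.46 FPKM (log2 fold change 1.27, adjusted p = 0.0112, held under all 19 alternatives). Stat6, the transcription factor below both cytokines, fell from 42.4 ± 5.73 to 28.5 ± 2.60 FPKM (−0.55, adjusted p = 0.00880, held under all 19 alternatives). Il4ra, the chain shared by both cytokines, was lower by −0.79 (adjusted p = 0.0169), without the call after GC correction (−0.49, adjusted p = 0.0826) or without PBS 3 (−0.55, adjusted p = 0.0726). Between GGsTop and vehicle, Stat6 (0.46, adjusted p = 0.0389) and Tyk2 (0.53, adjusted p = 0.0449) were higher, and both calls were lost with GC correction (adjusted p = 0.108 and 0.132) and in 9 and 11 other alternatives. Leaving out any of the libraries OL 12, OL 34, OL 56, OL 78, OLG 1, OLG 2 or OLG 3 lost the call of both, with adjusted p of 0.0583 to 0.119 for Stat6 and 0.0707 to 0.129 for Tyk2, and leaving out OLG 4 lost that of Tyk2 (0.0559).

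Other genes known to follow IL-4 or IL-13 were counted in the same way. Of 20 tested, 10 were higher in OVA/LPS/Vehicle than in PBS and 0 lower, beside 15.9% higher and 22.1% lower of all genes. The median log2 fold change was 1.26, beside −0.015 over all genes. The genes called were Clca1, Tff2, Itln1, Agr2, Fcgbp, Muc5ac, Ccl11, Slc26a4, Spdef and Foxa3. Clca1, Muc5ac, Foxa3 and the uncalled Serpinb2 had PBS means of 0.310, 0.195, 0.330 and 0.0640 FPKM. They passed the filter only through the OVA/LPS groups, so they could only come out higher and are no support in this count. Clca1, a secreted goblet cell protein, went from 0.310 ± 0.283 FPKM to 853 ± 395 FPKM (log2 fold change 9.23, adjusted p = 0.000500). Ccl11, the eosinophil attractant eotaxin, went from 2.80 ± 2.23 to 15.3 ± 5.35 FPKM (2.20, adjusted p = 0.00451) and Muc5ac, a goblet cell mucin, from 0.195 ± 0.197 to 7.52 ± 3.32 FPKM (2.75, adjusted p = 0.00772). The calls of Clca1, Tff2, Ccl11 and Muc5ac held under all 19 alternatives.

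Genes on the same list that mark alternatively activated macrophages did not pass. Arg1 was at 0.854 ± 0.223 FPKM in PBS and 1.83 ± 1.03 FPKM in OVA/LPS/Vehicle libraries (log2 fold change 0.55, adjusted p = 0.202). Mrc1 (0.23, adjusted p = 0.418) and Mgl2 (0.27, adjusted p = 0.210) did not pass by limma either. Pdcd1lg2 (0.42, adjusted p = 0.0935) and Alox15 (1.39, adjusted p = 0.0690), also on this list, did not pass but had an unadjusted p under 0.05. Between GGsTop and vehicle 0 of the 20 passed by limma, with 2 at an unadjusted p under 0.05 (Postn −0.43, Ccl17 0.58), and their median was −0.014. Against PBS, 5 of the 20 were higher in the GGsTop group (Clca1, Spdef, Ccl11, Muc5ac and Tff2), beside 2.06% of all genes. Here too Clca1 and Muc5ac could only come out higher. Of 21 alternatives, the call held under 21 for Clca1, 16 for Ccl11, 13 for Muc5ac and 11 for Tff2, while Spdef was not recomputed. Among the losses, the calls of Tff2 and Muc5ac were lost with the replicate block (3.69, adjusted p = 0.0551, and 2.42, adjusted p = 0.0505) and those of Tff2, Muc5ac and Ccl11 without PBS 1 (adjusted p = 0.142, 0.116 and 0.0921), PBS 3 (0.141, 0.120 and 0.0893), OLG 1 (0.0991, 0.0823 and 0.0654) or OLG 2 (0.0928, 0.0822 and 0.0561), and that of Tff2 without OLG 4 (0.0794).

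**Figure D3:**
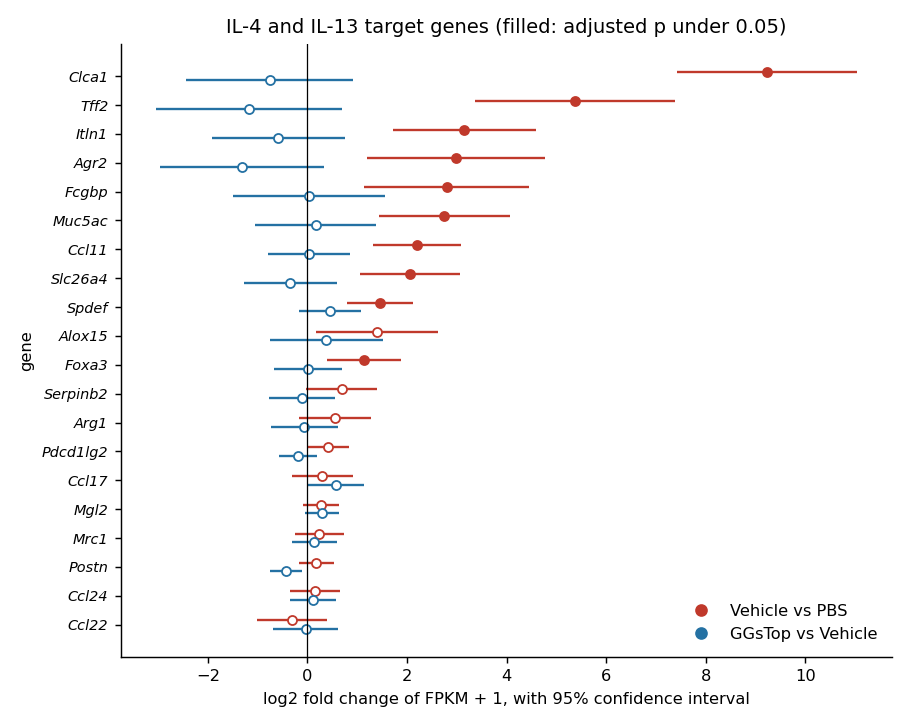
limma log2 fold changes of FPKM + 1 with 95% confidence intervals for the 20 tested IL-4 and IL-13 target genes, for OVA/LPS/Vehicle against PBS and for GGsTop against vehicle, filled where the adjusted p was under 0.05. Filled points lie only to the right, for 10 genes of OVA/LPS/Vehicle against PBS with Clca1 at 9.23, and no point of GGsTop against vehicle is filled.

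Markers of the cells that make these proteins did not move as one. Of 12 macrophage markers, C1qa was higher in OVA/LPS/Vehicle than in PBS (38.9 ± 5.43 to 62.5 ± 12.7 FPKM, log2 fold change 0.66, adjusted p = 0.0214) and Csf1r, Mertk and Siglec1 were lower. The call of C1qa held under 16 of 19 alternatives and was lost, among others, without PBS 1 (adjusted p = 0.0759) or OL 78 (0.0556). That of Csf1r was lost with GC correction (−0.36, adjusted p = 0.0774) or without PBS 3 (0.0636). Mertk and Siglec1 were not recomputed. Lyz2 made up most of the summed level of the 12 markers, with means of 2680, 2227 and 2551 FPKM in the 3 groups. The sum was 2541 to 3508 FPKM in PBS, 2095 to 3023 FPKM in OVA/LPS/Vehicle and 2098 to 3371 FPKM in OVA/LPS/GGsTop libraries, with none of the 12 at 0. Csf1r was the only one to pass between GGsTop and vehicle (0.61, adjusted p = 0.0351), and this held under 11 of 20 alternatives. It was lost, among others, with GC correction (0.44, adjusted p = 0.0789), without OL 34 (0.0855), OL 56 (0.0984), OL 78 (0.0544), OLG 1 (0.0932), OLG 2 (0.0806) or OLG 3 (0.0815). The 12 alveolar macrophage markers summed to 287 to 369, 260 to 414 and 253 to 401 FPKM in the 3 groups, with Pparg, Plet1 and Ctsk higher and Fabp1 lower in OVA/LPS/Vehicle than in PBS. Most of this sum came from Car4 and Ear2 (PBS means of 121 and 97.1 FPKM). Cidec is also among the adipocyte markers below and Siglecf among the eosinophil markers, so the sum does not measure alveolar macrophages alone.

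Other cells of the tissue were followed in the same way, first in OVA/LPS/Vehicle against PBS, where 15.9% of all genes were higher and 22.1% lower. Of 10 club and secretory cell markers, 5 were higher in OVA/LPS/Vehicle than in PBS (Scgb3a1, Scgb3a2, Bpifb1, Reg3g and Muc5b) and Krt7 was lower. Their summed levels were 33503 to 39517 FPKM in PBS, 38005 to 58302 FPKM in OVA/LPS/Vehicle and 45148 to 52555 FPKM in OVA/LPS/GGsTop libraries. Of 11 neutrophil markers tested, Ngp, Camp and Ltf were higher and Csf3r and Mmp9 lower, and the summed level of all 14 was 180 to 335, 420 to 653 and 195 to 564 FPKM. Most of the difference in this sum came from Ltf, also among the gland markers below, with means of 67.2, 340 and 176 FPKM. S100a9 had means of 126, 125 and 102 FPKM, and S100a8 of 27.7, 30.5 and 27.6 FPKM. Of 7 eosinophil markers tested, Prg2 was higher and was the only one to pass by limma. By log2 fold change 5 of the 7 were higher and 2 lower. The 2 lower were Ear6 (−0.56, adjusted p = 0.0701, libraries without overlap) and Siglecf (−0.44, adjusted p = 0.247). Epx, below the filter, was at 0 in every PBS library and also in OL 34 and OLG 3. Its mean was 0.107 FPKM under OVA/LPS/Vehicle and 0.0926 FPKM under OVA/LPS/GGsTop. The summed level of all 8 was 15.3 to 21.2, 14.9 to 40.7 and 19.4 to 48.3 FPKM. Most of this sum came from Cpa3, Siglecf and Alox15, so it does not measure eosinophils alone. Cpa3 is best known from mast cells, Siglecf is also among the alveolar macrophage markers, and Alox15 is also among the IL-4 and IL-13 targets. Of 10 alveolar type 2 cell markers, Sftpb, Slc34a2, Abca3, Napsa and Lyz1 were lower, with sums of 10506 to 16623, 5555 to 9206 and 4924 to 12213 FPKM. Of 6 epithelial markers, Epcam and Foxj1 were higher, with sums of 278 to 361, 369 to 485 and 338 to 723 FPKM. Of 8 gland and upper digestive tract markers tested, 6 were higher (Lipf, Dmbt1, Dcpp2, Wfdc18, Amy1 and Ltf), with sums over 11 listed markers of 5.54 to 185, 231 to 1596 and 19.6 to 462 FPKM and with Bpifa2 and Pip at 0 throughout. None of the 10 adipocyte markers passed by limma in any of the 3 comparisons, with Fabp4 at an unadjusted p under 0.05 in OVA/LPS/Vehicle against PBS and Adipoq, Fabp4, Pck1 and Ucp1 in GGsTop against vehicle. Between GGsTop and vehicle, Cpa3 (log2 fold change −0.72, adjusted p = 0.0292), Lipf (−5.27, 0.0456) and Dmbt1 (−2.95, 0.0302) were lower by limma and Abca3 higher (0.77, 0.0350). Against PBS, Prg2, Camp, Muc5b and Foxj1 were higher in the GGsTop group (adjusted p of 0.0144, 0.0262, 0.0452 and 0.00965). Of all genes, 8.71% passed between GGsTop and vehicle and 2.06% were higher against PBS. None of these calls was recomputed with other settings. The part of these shifts in the levels of the 7 genes was not tested.

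The genes whose pattern was most like each member were found by Pearson correlation of log2(FPKM + 1) over all 11 libraries, which share the step from PBS to OVA/LPS, so r over the 8 OVA/LPS libraries is given beside it as a description. Clca1 was the nearest gene to both Retnla (r = 0.994, and 0.968 over the 8) and Chil4 (0.992 and 0.955), and Retnla and Chil4 were near each other (0.979 and 0.907). Next to Chil4 came Fam81a (0.973 and 0.834) and next to Retnla came Ccna1 (0.977 and 0.573). Clca1 was at 374 FPKM in OL 56 and 67.0 FPKM in OLG 3, each the lowest of its group, as were Retnla and Chil4.

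**Figure D4:**
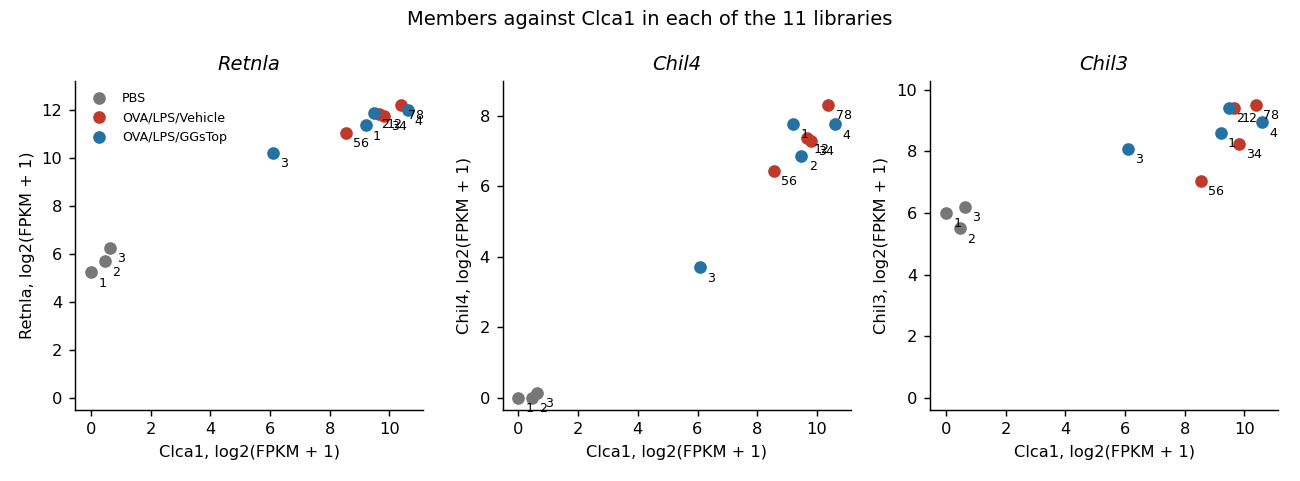
Retnla, Chil4 and Chil3 against Clca1 in each of the 11 libraries, all as log2(FPKM + 1), with library numbers beside the points. Retnla and Chil4 follow Clca1 within the OVA/LPS libraries down to OLG 3, where Clca1 was 67.0 FPKM, while Chil3 is lowest in OL 56 among the OVA/LPS libraries.

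The genes nearest to the other members follow. Nearest to Chil3 were Slpi, a secreted protease inhibitor (0.976 and 0.911), the chemokine gene Ccl9 (0.970 and 0.904) and Fcgr2b, an Fc receptor (0.961 and 0.916). Nearest to Chia1 were the anion exchanger gene Slc26a4, one of the IL-4 and IL-13 targets above (0.957 and 0.888), Ms4a7 (0.950 and 0.942) and Mmp12, macrophage elastase (0.945 and 0.853). Chil1 was nearest to Fcgr3 (0.935 and 0.913), Lgals3 (0.886 and 0.928) and Jaml (0.875 and 0.868). Retnlg was nearest to Itgax, the CD11c gene (0.934 and 0.911), Cebpe (0.929 and 0.906) and Cyp4f18 (0.927 and 0.975). Retnlb was nearest to Sprr2a3 (0.950 and 0.908), Wfdc17 (0.927 and 0.838) and Prrg4 (0.922 and 0.829).

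Among the members themselves, r over the 8 OVA/LPS libraries was 0.922 for Chil3 and Retnlg and 0.907 for Chil4 and Retnla, against 0.490 for Chil3 and Chil4, the pair with 95.3% identical coding sequence. In OLG 3, Chil4 held 7.74 fragments per 100 fragments of Chil3, while it held 29.1 to 95.8 in the other GGsTop libraries. In the RELM cluster, the ratio of Retnla to Retnlg FPKM was 1.59 to 3.15 in PBS, 59.5 to 143 in OVA/LPS/Vehicle and 35.6 to 87.0 in OVA/LPS/GGsTop libraries. The PBS ratios did not overlap those of either OVA/LPS group.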

How the data were processed

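Airway RNA-seq was grouped by label into PBS (3 libraries), OVA/LPS/Vehicle (4) and OVA/LPS/GGsTop (4). The authors deposited FPKM per gene and library. Their processing notes name cutadapt 1.15, HISAT2 2.0.5, HTSeq 0.9.1 and mm39. Symbols, exon lengths and coordinates came from GENCODE M21 on GRCm38, with exon lengths for 21846 of 21899 genes. For 97.9% of genes the deposited FPKM gave whole fragments in every library (within 0.02 of a fragment), which gave the depths. 26 symbols were shared by several identifiers. After leaving out genes whose mean fell under 0.5 FPKM, log2(FPKM + 1) was fitted in 1 limma model over all 11 libraries (limma 3.58.1, R 4.3.3, mean-variance trend), with two-sided p-values adjusted by Benjamini-Hochberg over 14004 genes. Fold changes are on the log2(FPKM + 1) scale, which understates the change of low genes.

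The members and gene lists were chosen with earlier results of these data known, so no count over a list is independent support. The genes named are the 7 members, the other family and receptor genes, from each further list the 3 with the smallest p in OVA/LPS/Vehicle against PBS and in GGsTop against vehicle and the 3 with the highest mean FPKM, and the 3 genes most like each member by Pearson correlation. Other genes are named to account for calls, and Muc5ac, Arg1, Mrc1, Pdcd1lg2, Il4, Il5, Il13 and Adgre1 were singled out after their values were seen. Coding sequences were aligned with Biopython 1.88, and promoter windows came from RefSeq on GRCm38.p6. The exact Poisson interval and the limit of 3 fragments cover counting error only.

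Results were recomputed with other filters (a mean of 1 FPKM, or no minimum), with 0.1 as pseudocount, after scaling to equal medians or equal FPKM totals, without the trend, with robust variances, with array weights, on the compared groups alone, after correction for GC content (a spline with 5 degrees of freedom per library), by voom on the recovered reads, and without each library. For GGsTop against PBS a replicate block was tried alone and together with the GC correction. Leaving out OL 56 and OLG 3 together and all alternatives for genes other than the members were added after seeing the data. Beside the members, only Clca1, Tff2, Muc5ac, Ccl11, Il4, Il13ra1, Il4ra, Stat6, Tyk2, Tlr4, C1qa and Csf1r were recomputed as single genes, and not in every comparison. The sources state no pairing of PBS with GGsTop libraries, so the block rests on an assumption. Deviations of libraries with the same number correlated at 0.158, 0.624 and 0.401 in these same data, and these numbers were taken as pairs, although PBS 1 correlated more with OLG 3 (0.419). The fit was tested on simulated data with known changes. qPCR, protein and lung function data were not used here.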

Additional observations from a re-analysis of the deposited data

How the results depend on the processing

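For the 7 genes, 382 of 417 values under an alternative kept their direction and their side of the threshold, 11 lost a call, 8 gained 1 and 16 changed sign, all 16 in GGsTop against vehicle, where nothing was called. Leaving out a library took the log2 difference of GGsTop against vehicle to between −0.19 and 0.18 for Chil1, −0.30 and 0.53 for Chil3, −1.24 and 0.11 for Chil4, −0.59 and 0.019 for Retnla, −0.088 and 0.26 for Retnlb and −0.018 and 0.73 for Retnlg. Other changes of sign were Chil1 after scaling to the same FPKM total (0.093), Retnlb with array weights (−0.050) and Chil3 without OL 56 and OLG 3 (−0.073). The cause was not tested. The replicate block for GGsTop against PBS, a fit with numbers 1 to 3 assumed to be pairs and without OLG 4, lowered the count over all genes from 403 to 62 (418 with GC correction), left 3 members called and changed no other call of the 7 genes. With OL 56 and OLG 3 left out, 5 members were called in that comparison.

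Over all genes, the calls of OVA/LPS/Vehicle against PBS went from 5327 to 3001 with GC correction, to 3469 without OL 56 and OLG 3, and to between 3064 (without PBS 3) and 6440 (without PBS 2) without single libraries. Those of GGsTop against vehicle went from 1220 to 698 with the same median, 2181 with the same FPKM total, 5214 with array weights, 3525 in the groups compared alone, 313 with GC correction, 3 without OL 56 and OLG 3, and 24 to 1052 without single libraries. Those of GGsTop against PBS went to 208 with no filter, 2557 with array weights, 39 in the groups compared alone, 609 with GC correction and 29 to 1597 without single libraries. Scaling to the same FPKM total moved the median log2 fold change of all genes from −0.015 to −0.15 for OVA/LPS/Vehicle against PBS, and each of the 5 members called there remained higher. Retnlb has no value at a minimum mean of 1 FPKM. At the depth of these libraries a level of Retnlb rests on 3 to 19 fragments.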
